A study of Bos taurus with 36 samples.

Results

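The genes described here encode the mitochondrial ribosome and the machinery that brings proteins into mitochondria. They were all genes of the bovine array with a single annotated symbol that begins with MRPL or MRPS and a digit, TIMM or TOMM, together with MTX1, MTX2 and MRS2. The rule gave 88 of 9155 genes. TOMM20 and TIMM17A were not analysed here. By name, 43 members belong to the large subunit of the mitochondrial ribosome and 24 to its small subunit. Another 9 were grouped with the outer membrane, although TOMM34 among them is cytosolic. The inner membrane and intermembrane space have 11, and 1, MRS2, is a magnesium channel of the inner membrane. Of those named for the small subunit, MRPS18A and MRPS30 sit in the large subunit in known mammalian structures. MRPS36 is now placed with the oxoglutarate dehydrogenase complex.

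Mitochondria keep a small genome of their own, and the few proteins it encodes, all parts of the oxidative phosphorylation complexes, are made on a ribosome whose protein subunits come from nuclear genes. Those subunits, like nearly all mitochondrial proteins, are made in the cytosol and pass through the TOM complex of the outer membrane, after which the TIM complexes place them in the inner membrane or the matrix. Secretory mammary epithelium makes large amounts of milk protein, lactose and fat during lactation, which takes much ATP.

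Mammary tissue came from 6 multiparous Holstein cows under unilateral frequent milking (UFM): the right side of the udder was milked 4 times a day (4×) and the left side 2 times (2×) for the first 21 days of lactation. Both sides were milked 2× thereafter, so glands called 4× on days 23 and 40 were those milked 4× earlier. Each cow gave a biopsy of both sides on day 21, during UFM, and on days 23 and 40, after it, which makes 6 groups of 6 biopsies and 36 arrays. Milking and side of the udder cannot be told apart, nor can day 23 and gland position, since biopsies were of fore glands on day 23 but of rear glands on the other days. All values are log2 signals from the GeneChip Bovine Genome Array, and a difference of 1 is a doubling of signal.

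The arrays carried the marks of lactating tissue. Of 8 symbols listed for the secretory epithelium, 7 were matched to a measured gene. The mean of these 7 genes lay between 14.02 and 14.34 on every array. Means of other marker lists were read as well. The mean of 5 luminal epithelium genes (EPCAM and 4 keratins) ranged from 8.56 to 10.4, and that of 3 neutrophil genes, S100A8, S100A9 and S100A12, from 5.49 to 7.40. The 2× gland of cow 1 on day 21 had the highest luminal value, 10.36, and the lowest secretory value, 14.02. Its neutrophil value was 7.37, beside 7.40 in the 2× gland of cow 3 on that day, while the other 2× glands of day 21 lay between 5.49 and 5.84. The paper lists KRT7, KRT8 and S100A12 among its genes that changed with milking frequency. It found no effect of milking on the shares of epithelial and stromal cells. A biopsy mixes cells, and fewer cells of a type cannot be told apart from less RNA in each cell.

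The mean log2 signals of the 88 genes ran from 4.61 for MRS2 to 11.5 for TOMM7, a small subunit of the TOM complex, with a median of 8.02 beside 7.16 over all genes. Signals of different probe sets cannot be ranked against each other as amounts of RNA. MRS2 and MRPL46 alone had a mean under 5, near the background of the array.

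The members varied little. Over the 36 arrays the median SD of a member was 0.172, against 0.200 over all genes. The range between the highest and the lowest of the 6 group means had a median of 0.156 for the members and 0.212 for all genes. The steadiest level was that of MRPL9, a large subunit protein, whose 6 group means spanned 0.07. The widest span, 0.39, belonged to TIMM8B, a chaperone of the intermembrane space.

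Averaged over the 88 genes, the level was 7.99 ± 0.13 in 4× glands and 7.94 ± 0.13 in 2× glands on day 21 (SD, n = 6 cows each). On day 23 it was 7.97 ± 0.06 in 4× glands and 7.98 ± 0.12 in 2× glands. On day 40 it was 8.02 ± 0.14 in 4× glands and 7.99 ± 0.08 in 2× glands. In all 3 pairs the ranges of the groups overlapped. The highest group mean fell in 4× glands of day 40 for 45 of 88 genes, and the lowest in 2× glands of day 21 for 40 of 88, against 26.3% and 27.7% of all genes. Without cow 1 these counts were 18 (20.5%) and 22 (25%), beside 22.2% and 21.5% of all genes.

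Differential expression was taken within cows, as the log2 signal of the 4× gland less that of its 2× partner. It was tested with limma, with Benjamini-Hochberg adjustment of the p-values across 24016 probe sets. No member reached an adjusted p of 0.05 on day 21, 23 or 40, and neither did any other probe set. Counts below are therefore at an unadjusted p under 0.05, beside the share of all genes that reached it.

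On day 21, after 3 weeks of UFM, 7 members were past that threshold with higher values in 4× glands and 0 with lower values, where 8.29% of all genes were higher and 9.61% lower. Their share was thus close to the background on the higher side. The median difference of the 88 genes was 0.050, with 61 above 0, and that of all genes was 0.008. Differences ran from -0.15 for MRPS26 to 0.39 for TIMM8B. The 95% interval lay within 0.25 of 0 for 42 of 88 members and within 0.5 for 86. The count depended on cow 1, as did that of all genes. Without its day 21 glands 4 members were past the threshold, while the median was then 0.043. Of all genes 5.54% were past it without those glands, against 17.9% with them. On this day the luminal epithelium genes were lower in the 4× gland of all 6 cows, by -0.51 in the mean and by -1.41 in cow 1; their part in the members' differences was not tested.

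**Figure D1:**
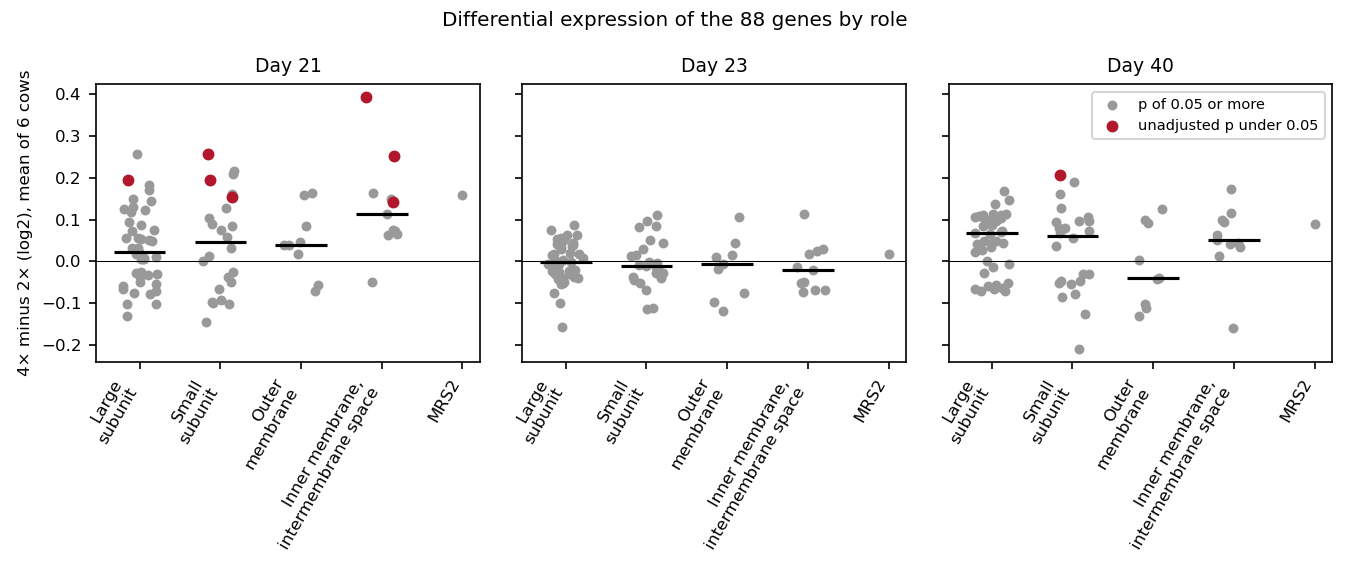
Mean difference between the 4× and the 2× gland (log2, mean of 6 cows) of each of the 88 genes on days 21, 23 and 40, grouped by role. Each point is a gene, red points had an unadjusted p under 0.05, and black bars are medians. Values on day 21 reach 0.39 (TIMM8B), while on day 23 all lie between -0.16 and 0.11.

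Among the 11 members of the inner membrane and intermembrane space 10 had a positive difference on day 21, with a median of 0.11. Of the 11, 3 were past the unadjusted threshold, all higher, where 8.29% of all genes were higher. All 5 small TIMs, the chaperones that carry hydrophobic proteins across the intermembrane space, were positive, from 0.06 for TIMM10 to 0.39 for TIMM8B.

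TIMM8B, which is a close relative of TIMM8A, had a lowest, median and highest signal of 10.18, 10.58 and 10.73 in 4× glands of day 21, against 8.90, 10.45 and 10.64 in 2× glands. It was higher in the 4× gland of all 6 cows, but by 1.65 in cow 1 and by 0.08 to 0.26 in the others. The mean difference was 0.39 ± 0.14 (SE; unadjusted p = 0.0119, adjusted p = 0.199), and without cow 1 it was 0.14. The 2× gland of cow 1 had the lowest of the 36 values and the 2× gland of cow 3, at 9.92, the next lowest. These were the 2 arrays with the highest neutrophil values, and the part of their cell makeup in the TIMM8B value was not tested.

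TIMM8A, which pairs with TIMM13 in a chaperone complex and is mutated in a human deafness and dystonia syndrome, had the smallest p of the set. Its lowest, median and highest signals were 7.90, 8.26 and 8.58 in 4× glands and 7.41, 8.01 and 8.43 in 2× glands. The groups overlapped, yet in no cow did the 2× gland lie above the 4× gland. The difference was 0.25 ± 0.08 (adjusted p = 0.182), of which cow 1 had 0.61 and cow 3 had 0.00. Its partner TIMM13 stood at 0.07 (interval -0.11 to 0.24), and TIMM9 and TIMM10, which form the other such complex, at 0.07 and 0.06.

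TIMM17B, a subunit of the TIM23 channel of the inner membrane, ran from 8.97 to 9.35 in 4× glands and from 8.90 to 9.23 in 2× glands. All 6 cows had a higher value in the 4× gland, by 0.02 to 0.28, for a mean of 0.14 ± 0.07 (adjusted p = 0.297). TIMM23, which forms the channel, was also higher in 6 of 6 4× glands, at 0.16 with an interval from -0.03 to 0.36. TIMM44, which holds the import motor at the channel, stood at 0.15 (interval -0.00 to 0.30). TIMM50, the receptor that hands proteins to the channel, was at -0.05, and its sign turned when cow 3 was left out.

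At the outer membrane no member was past the threshold on day 21 with the probe set used. TOMM40, the pore of the TOM complex, had a difference of 0.05 (interval -0.10 to 0.19). The receptors TOMM22 and TOMM70 stood at -0.06 and 0.04, each with an interval inside 0.25 on both sides. The metaxins MTX1 and MTX2, which work with the machinery that inserts outer membrane barrel proteins, stood at 0.08 and 0.16. For MTX2 the value of the probe set used rested on cow 1, whose 4× gland was higher by 0.74, since the mean of the other cows was 0.05. A second probe set of MTX2 had a difference of 0.26 and one of MTX1 a difference of 0.21, both larger than the probe set used. Both were past the threshold (limma, unadjusted p = 0.00486 for MTX2 and 0.00868 for MTX1). MRS2, whose channel lets magnesium into the matrix, was too dim to be read closely, and its 0.16 came largely from cow 1, at 0.68.

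Of 24 members named for the small subunit, 3 were past the threshold on day 21, and of 43 named for the large subunit, 1. All were higher in 4× glands, where 8.29% of all genes were higher and 9.61% lower. The median differences of the small and the large subunit members were 0.04 and 0.02.

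MRPS18A led them. It carries a small subunit name but sits in the large subunit in known mammalian structures, and was grouped here by its name. Its signals were 6.70, 6.86 and 6.99 (lowest, median, highest) in 4× glands and 6.33, 6.54 and 6.94 in 2× glands, so that the groups overlapped through the 2× glands of cows 2 and 5. The difference was 0.26 ± 0.09 (adjusted p = 0.184), positive in 5 of 6 cows, and 0.26 without cow 1 as well.

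MRPS18B, its relative in the small subunit, had a smaller difference, 0.15 ± 0.06 (adjusted p = 0.25), but in the same direction in 6 of 6 cows. Its values ran from 8.24 to 8.51 in 4× glands and from 7.96 to 8.43 in 2× glands. MRPS9, a core protein of the small subunit, differed by 0.19 ± 0.08 (adjusted p = 0.260) and was higher in the 4× gland of 5 cows. Other probe sets of MRPS9 gave 0.16 and, for a dim one, 0.35 on day 21.

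MRPL42 was the single large subunit member past the threshold. Its lowest, median and highest signals were 7.75, 8.05 and 8.42 in 4× glands and 7.45, 7.90 and 8.18 in 2× glands. Groups overlapped widely, but the 4× gland was higher within each of the 6 cows, by 0.04 to 0.35. The mean was 0.19 ± 0.09 (adjusted p = 0.291). MRPL39, another large subunit protein, stood at -0.03 (interval -0.18 to 0.12) with the probe set used and at 0.25 with a second bright one, so that its direction depended on the probe set.

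**Figure D2:**
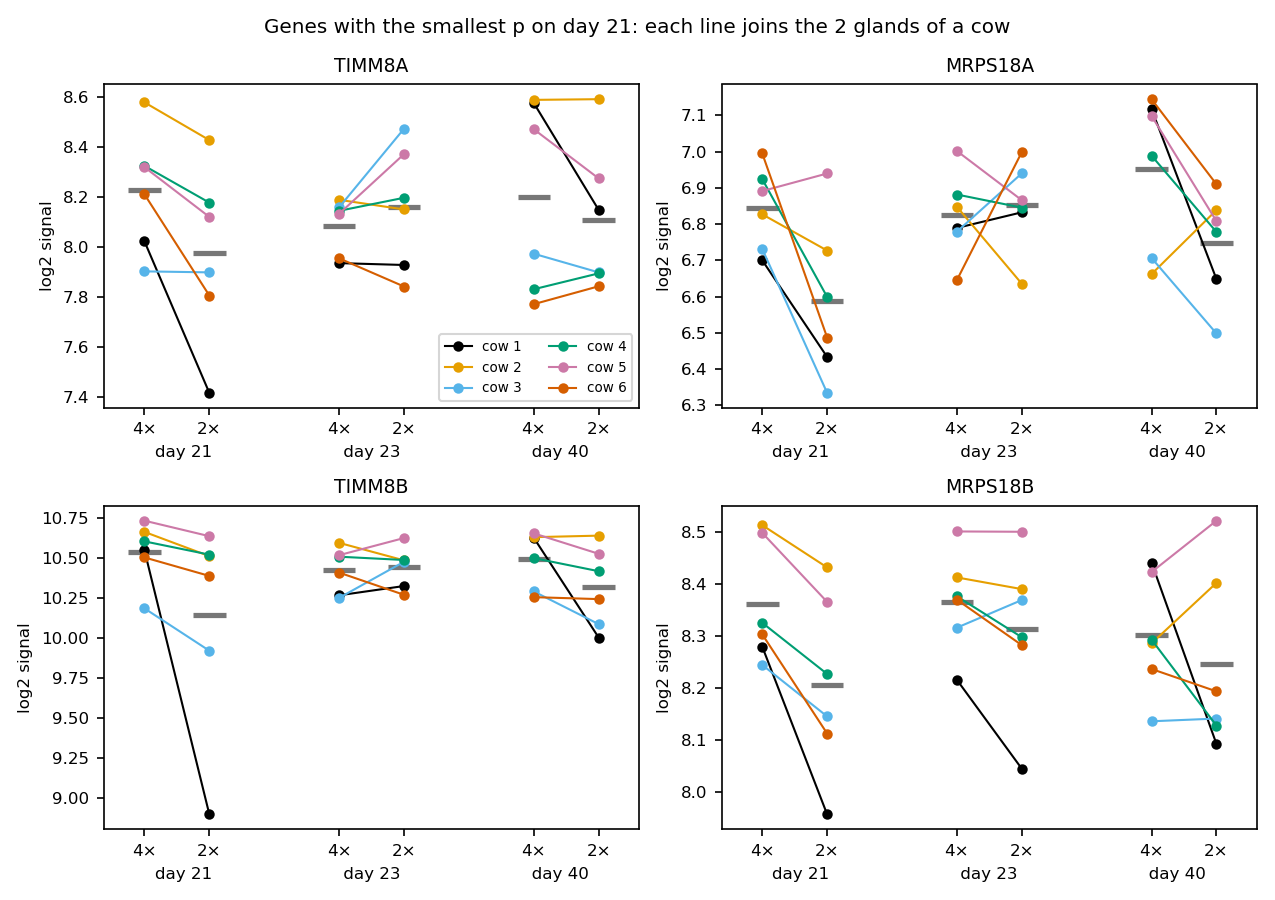
Log2 signal of the 4 genes with the smallest p on day 21 in the 4× gland (left of each pair) and the 2× gland (right) on days 21, 23 and 40. Each colour is a cow, lines join its 2 glands, and grey bars are means of 6 cows. TIMM8B of cow 1 lies at 8.90 in the 2× gland of day 21, and the next lowest value, 9.92, is that of the 2× gland of cow 3 on the same day.

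On day 23, with both sides milked 2×, the differences were small. Past the threshold were 0 members higher and 0 lower in 4× glands, where 1.41% of all genes were higher and 1.07% lower. The median difference was -0.01, with 39 of 88 above 0, and the intervals of 70 members lay within 0.25 of 0. The smallest p belonged to TOMM5, a small TOM subunit, at 0.11 (limma, adjusted p = 1.00), and it was followed by MRPS17 at 0.11 and MTX1 at -0.10. TOMM34, a cytosolic partner of heat shock proteins that binds precursors, stood at -0.12, MRPS35 at 0.10 and TIMM9 at 0.11. The genes that led on day 21 had differences near 0: TIMM8B -0.02, TIMM8A -0.07, MRPS18A -0.03 and MRPS18B 0.05.

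On day 40, 1 member was past the threshold with a higher value in 4× glands and 0 with a lower one, where 8.9% of all genes were higher and 9.51% lower. Members were thus fewer than the background in both directions. The median difference was 0.060 with 60 of 88 above 0. It rested on cow 1: leaving that cow out gave a median of -0.00476. Leaving out its day 40 glands gave 0 members higher and 3 lower, where 395 of 9155 genes were higher and 381 lower. Scaled to 5 reference genes (UXT, EIF3K, RPS9, RPS15 and B2M), 0 members were higher and 1 lower, where 248 of 9155 genes were higher and 1201 lower.

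The member past the threshold on day 40 was MRPS18A again. Its lowest, median and highest signals were 6.66, 7.04 and 7.14 in 4× glands against 6.5, 6.79 and 6.91 in 2× glands. It was higher in the 4× gland of 5 cows, with cow 2 opposite, and differed by 0.21 ± 0.09 (adjusted p = 0.209). Days 21 and 40 are separate biopsies of the same 6 cows. MRPL14 and MRPL24 of the large subunit followed at 0.15 and 0.17, and MRPS16 of the small subunit at 0.16, of which cow 1 had 0.68. TIMM9 stood at -0.16 (interval -0.35 to 0.03), and was lower in the 4× gland of 5 cows. TIMM17B stood at 0.12.

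The change of the difference between days was tested within the same fit. That fit had no term for cow, so the differences of a cow on separate days were treated as independent. The SE and intervals of the changes therefore did not measure the spread of the change from cow to cow. Between day 21 and day 23, 0 members had a larger and 4 a smaller difference at an unadjusted p under 0.05, where 7.01% of all genes had a larger and 5.42% a smaller one. The 4 were TIMM8A, MRPS18A, MRPL15 and TIMM44. TIMM8A had a change of -0.33 ± 0.12 (adjusted p = 0.396) and was negative in all 6 cows. MRPS18A stood at -0.29 ± 0.12, with cows 2 and 5 opposite. MRPL15, a large subunit protein with the largest SD of the members over the 36 arrays, 0.43, had -0.41 ± 0.20, and cow 6 lay opposite at 0.56. TIMM44 stood at -0.22 ± 0.10. These values share the day 21 glands with the comparison of day 21 itself and are not independent of it.

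Between day 21 and day 40, 0 members had a larger and 1 a smaller difference, where 2.32% of all genes had a larger and 3.24% a smaller one. That gene was MRPS9, at -0.25 ± 0.12 (adjusted p = 0.789), negative in 5 cows. Its probe sets disagreed on day 40, where the one used stood at -0.05, the other bright one at 0.27 and the dim one at 0.15. MTX2 had a change of -0.29 (interval -0.61 to 0.02) that was negative in all 6 cows, from -0.45 to -0.09. TIMM9 stood at -0.24 and MRPS11 at 0.22, the second with 0.89 in cow 1.

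Levels over time were compared within each side of the udder. In 4× glands on day 23 against day 21, 1 member was higher and 2 were lower, where 2.37% of all genes were higher and 1.64% lower. TOMM34 had 6.97, 7.05 and 7.47 (lowest, median, highest) on day 23 and 7.25, 7.42 and 7.56 on day 21. It was lower on day 23 in 5 of 6 cows, by -0.27 ± 0.10 in the mean (adjusted p = 0.999). MTX1 stood at -0.15 and MRPL38, a large subunit protein, at 0.17.

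In 4× glands on day 40 against day 21, 3 members were higher and 2 lower, where 3.53% of all genes were higher and 4.53% lower. This comparison had probe sets past the adjusted threshold, 14 of 24016 and 0.0437% of all genes, but none was a member. MRPL38 had 7.57, 7.67 and 7.77 on day 40 and 7.37, 7.45 and 7.60 on day 21, so that the ranges overlapped narrowly. It was higher on day 40 in all 6 cows, by 0.20 ± 0.07 (adjusted p = 0.426). Its day 23 value in 4× glands was also above day 21, and in 2× glands its group means were 7.53, 7.57 and 7.57 on days 21, 23 and 40.

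MRPL12, the stalk protein of the large subunit, which in human cells also binds the mitochondrial RNA polymerase, was higher on day 40 by 0.21 ± 0.08, with cow 6 opposite. MRPS17 was higher by 0.18 in 6 of 6 cows. Lower on day 40 were MRPS9, at -0.21, and TIMM9, at -0.24 with -0.86 in cow 6. Adjusted p-values of these 4 lay between 0.463 and 0.542.

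In 2× glands, 6 members were higher and 1 lower on day 23 than on day 21, where 8.07% of all genes were higher and 9.9% lower. The leading member was MRPS18A, with 6.64, 6.86 and 7.0 on day 23 and 6.33, 6.54 and 6.94 on day 21, a mean difference of 0.27 ± 0.09 (adjusted p = 0.173). MRPS28, a small subunit protein, had 0.34 ± 0.15 and TIMM17B had 0.16 ± 0.07. MRPL16 and MRPL24 had 0.21 and 0.20. TIMM8B had 0.30, but only cows 1 and 3 were positive, with 1.43 in cow 1. MRPS31 of the small subunit was lower, at -0.22. Without the day 21 glands of cow 1, 1 member was higher and 0 were lower. In that fit 315 of 9155 genes were higher and 367 lower. Scaled to reference genes the member count was 14 higher and 0 lower, where 1200 of 9155 genes were higher and 396 lower. The day 21 glands of the 2× side enter this comparison and that of 4× with 2× on day 21 alike.

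In 2× glands on day 40 against day 21, 0 members were higher and 0 lower, where 4.39% of all genes were higher and 2.86% lower. MRPS18A stood at 0.16, TIMM17B at 0.12, MRPL20 at 0.17 and MRS2 at 0.14, each positive in 5 of 6 cows with an interval that held 0. Scaled to 5 reference genes, 15 members were past the threshold here, all higher, with 85 of 88 above 0, where 1042 of 9155 genes were higher and 75 lower. With that scaling the median of all genes in this comparison was 0.089, beside 0.007 without it.

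The members moved together from cow to cow. On day 23 the 4× gland had the higher value for 72, 71 and 70 of the 88 genes in cows 1, 2 and 6, but for 16, 18 and 18 in cows 3, 4 and 5. Over all genes these shares lay between 42.1% and 57.4%. The near absence of a mean difference on day 23 joined cows in which most members were higher with cows in which most were lower. On day 21 the count ran from 32 of 88 in cow 3 to 70 in cow 2. On day 40 it was 77 in cow 1 and between 22 and 55 in the others.

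**Figure D3:**
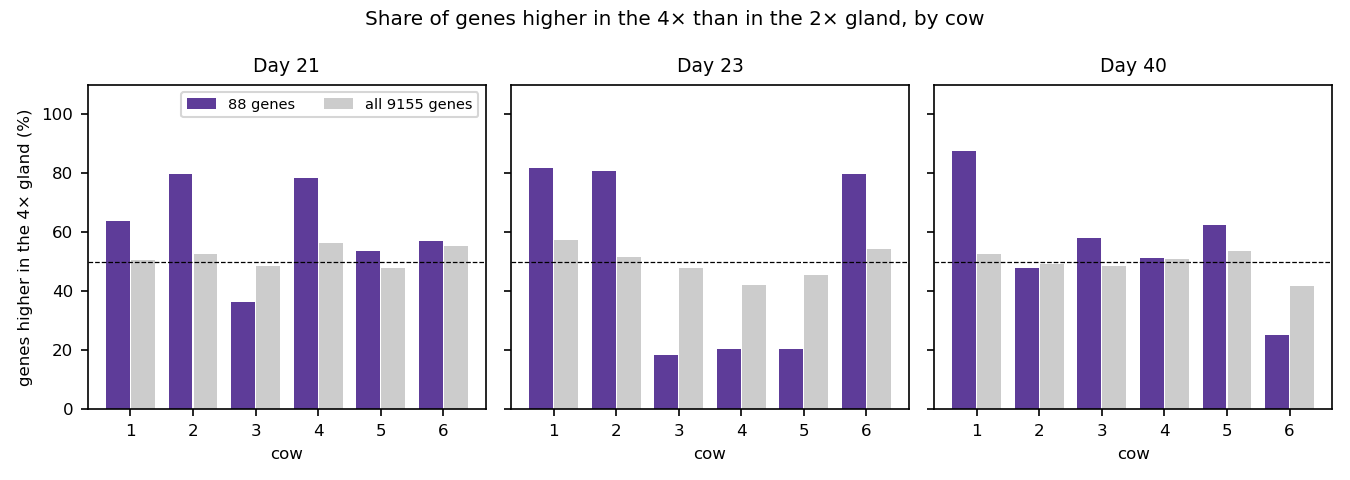
Percent of the 88 genes (purple) and of all 9155 genes (grey) with a higher value in the 4× than in the 2× gland, for each cow on days 21, 23 and 40. The dashed line marks 50%. On day 23 the 88 genes stand at 79.5% or more in cows 1, 2 and 6 and at 20.5% or less in cows 3, 4 and 5, while all genes lie between 42.1% and 57.4%.

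On day 23 the mean difference of the large subunit was -0.12 to -0.15 in cows 3, 4 and 5 and 0.10 to 0.17 in cows 1, 2 and 6, and those of the small subunit, the outer membrane and the inner membrane genes had the same sign in each cow. Other gene groups shared that sign in all 6 cows too. The 85 oxidative phosphorylation subunits had mean differences of 0.04, 0.09, -0.13, -0.14, -0.16 and 0.17 in cows 1 to 6, and the 5 reference genes had 0.17, 0.05, -0.11, -0.09, -0.03 and 0.13. The 69 cytosolic ribosomal proteins lay between -0.06 and 0.09, with the same signs. They share RPS9 and RPS15 with the reference genes, so these groups were not separate. On day 40 the 4× gland of cow 1 had a mean over the 88 genes of 8.24, the highest of all arrays, and a mean difference of 0.317. The 5 other cows lay between -0.11 and 0.03.

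Across the 36 arrays, which share cows and groups, the correlation between 2 members had a median of 0.36 and was positive in 89.4% of 3828 pairs after the means of groups and cows were removed. Over all gene pairs the median was -0.00. Within the small TIMs it was 0.59, and all 10 pairs were positive. Among these 10 pairs the closest was TIMM10 with TIMM8A, with r = 0.79, followed by TIMM10 with TIMM13 at 0.77, TIMM13 with TIMM9 at 0.74 and TIMM8A with TIMM8B at 0.64. MRPL58, a peptidyl hydrolase built into the large subunit, MRPL55 and TIMM10 followed the other members most closely, with a mean r of 0.50 to 0.53. MRPL46, MRPL38, TOMM5, TOMM40 and TIMM44 followed them hardly, with 0.06 or less.

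The mean of the 88 genes followed that of 85 oxidative phosphorylation subunits with r = 0.90 over the 36 arrays, and that of 69 cytosolic ribosomal proteins with r = 0.49. Its correlation with the 5 reference genes was 0.47. Among the marker lists the correlation was -0.48 with endothelium, -0.47 with T cells, -0.42 with erythrocytes, 0.42 with secretory epithelium, 0.40 with fibroblasts and -0.38 with luminal epithelium, and the other 5 lay between -0.34 and 0.13. After group and cow means were removed, it was -0.66 with endothelium, 0.29 with secretory epithelium, 0.63 with the reference genes and 0.93 with the oxidative phosphorylation subunits. With the signal gap between the 3' and 5' probe sets of actin, a measure of RNA integrity, it was 0.31 over the 36 arrays. With that of GAPDH it was -0.30. After group and cow means were removed, these values were 0.22 and -0.13. The part of cell makeup and RNA quality in this common movement was not tested.

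**Figure D4:**
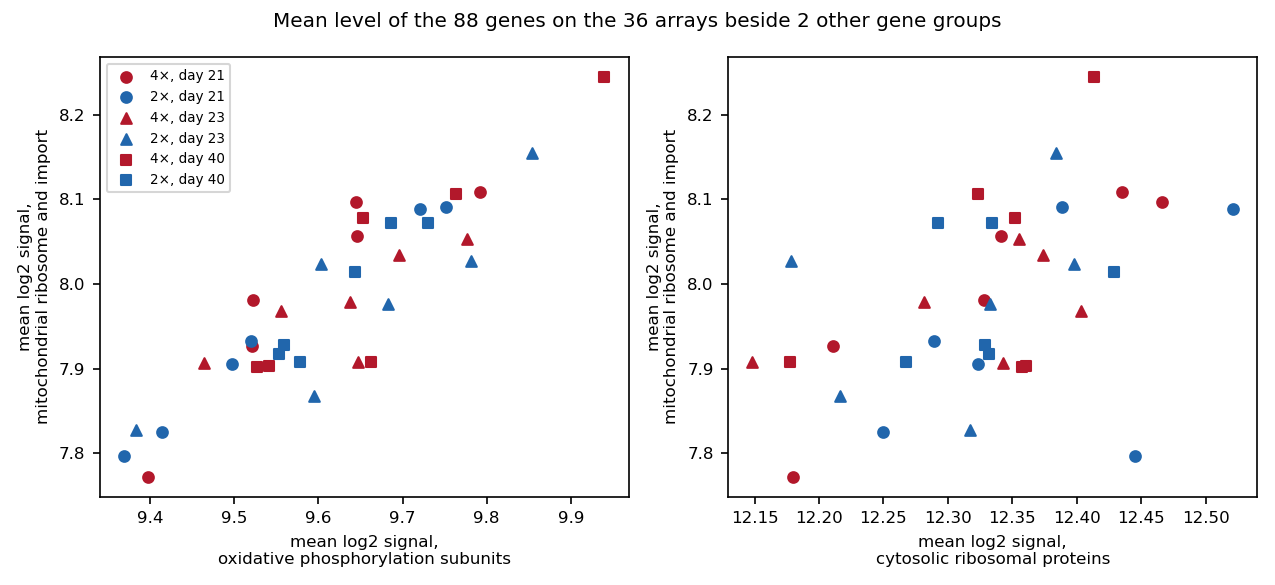
Mean log2 signal of the 88 genes (vertical) against the mean of 85 oxidative phosphorylation subunits (left) and of 69 cytosolic ribosomal proteins (right). Each point is 1 of 36 arrays, red for 4× and blue for 2× glands, with symbols for days. Points follow a line more closely on the left (r = 0.90) than on the right (r = 0.49), and the 4× gland of cow 1 on day 40 lies at the top.

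Beside the members, the oxidative phosphorylation subunits had 4 of 85 genes higher and 0 lower in 4× glands on day 21, with a median difference of 0.024, and on day 40 they had 3 higher and 0 lower with a median of 0.060. Over all genes 8.29% were higher and 9.61% lower on day 21, and 8.9% and 9.51% on day 40. In 2× glands on day 23 against day 21, 17 of 85 were higher and 0 lower, beside 8.07% and 9.9% of all genes. Cytosolic ribosomal proteins had a median of -0.047 on day 21, with 11 of 69 above 0. No test of these groups against the members was made.

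Of 24 further symbols listed for mitochondrial translation, 20 were matched to a measured gene. On day 21 only MTG2, a GTPase of ribosome assembly, was past the threshold, higher in 4× glands by 0.18, where 8.29% of all genes were higher. In 2× glands on day 23 against day 21, 3 of 20 were higher and 2 lower, beside 8.07% and 9.9% of all genes. Those higher were GFM2, a ribosome recycling factor, MTG2 and TUFM, the elongation factor that brings tRNAs. Those lower were MTFMT, which formylates the initiator tRNA, at -0.44, and PTCD3, at -0.22.

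Of 22 listed import partners 15 were measured. On day 21, 1 of 15 was higher and 1 lower in 4× glands, beside 8.29% and 9.61% of all genes. LETM1, an inner membrane ion exchanger, was higher in the 4× gland of 6 cows by 0.27. SAMM50, the core of the outer membrane insertion machinery, stood at -0.27. On day 40, 0 of 15 were higher and 2 lower in 4× glands, beside 8.9% and 9.51% of all genes. These were GRPEL2, a partner of the import motor, and IMMP1L, an inner membrane peptidase. They stood at -0.26 and -0.28, and each was lower in 5 of 6 cows. In 2× glands on day 23 against day 21, 1 of 15 was higher and 2 were lower, beside 8.07% and 9.9% of all genes. LETM1 stood at 0.36, and the cytosolic chaperones HSPA8 and HSP90AA1 at -0.42 and -0.40.

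Of 12 listed genes of mitochondrial transcription and biogenesis 7 were measured. On day 21, 2 of 7 were higher and 1 lower in 4× glands, beside 8.29% and 9.61% of all genes. TFB2M, the factor that opens mitochondrial promoters, had the largest difference of these on day 21, 0.49 ± 0.12 (adjusted p = 0.180), positive in 6 of 6 cows, and 0.34 without cow 1. On day 40 it stood at 0.27, and its change between day 21 and day 23 was -0.52. PPARGC1A, a coactivator of mitochondrial biogenesis, was higher in the 4× gland of 6 cows on day 21 by 0.30, but by 0.11 without cow 1, and the transcription factor NRF1 stood at -0.22. None of these genes had an adjusted p under 0.05.

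Differences between cows exceeded those between groups. The cow accounted for a median of 34.8% of the sum of squares of a member and the group for 9.41%, against 30.6% and 13.6% over all genes. MRPL57, a large subunit protein, had 69.8% between cows, with cow means from 7.71 in cow 3 to 8.63 in cow 5. MRPL36 followed with 69.2%, MRPS24 with 67.5% and MRPL51 with 60.2%. Cows 5 and 6 were high in MRPL36, cow 5 in MRPS24 and cow 1 in MRPL51. By contrast MRPS18A had the largest share between groups, 36.7%.

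**Figure D5:**
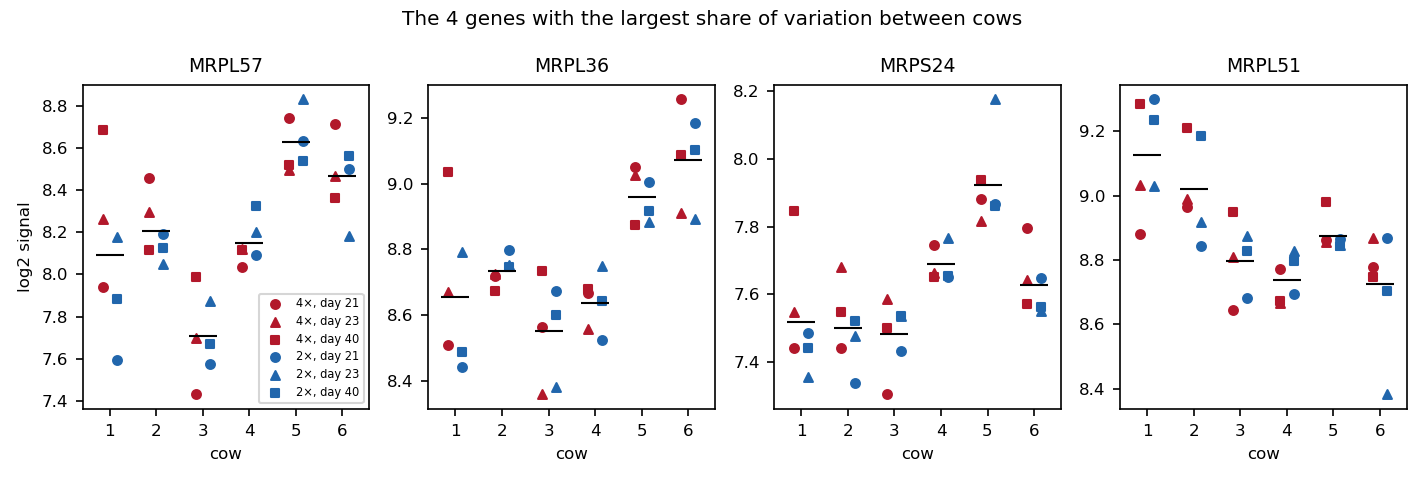
Log2 signal by cow of the 4 members with the largest share of variation between cows. Red points are 4× and blue points 2× glands, symbols are days, and black lines are cow means. MRPL57 lies lowest in cow 3 (mean 7.71) and highest in cow 5 (mean 8.63).

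The choice of probe set mattered for some genes. The 88 genes had 112 probe sets, and 20 genes had more than 1. Of the 24 not used, 8 were dim, with a mean under 5. The other 16 followed the probe set used with a median r of 0.63 over the 36 arrays, from -0.06 for MRPS34 to 0.86 for MRPL23.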

How the data were processed

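RNA from 36 mammary biopsies, of 6 cows, 2 sides of the udder and 3 days, was measured on 1 array each. The authors made the deposited log2 values with the Robust Multichip Average in BioConductor (background correction, normalization across arrays and summary to probe sets); its version is not given in the sources used here, and probe signals were not used. Array medians lay between 6.04 and 6.15. Of 24128 probe sets, 112 controls were left out. In the annotation 13318 probe sets carry a single symbol, 86 carry several and 10724 carry none. A gene was read from its probe set with the highest mean. The number of arrays limits the precision.

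Arrays were grouped by their labels. The pairing comes from the cow, and after group means were removed the 2 glands of a cow correlated at 0.242 to 0.665 in 18 of 18 pairs. The 18 differences within cows were fitted with limma 3.58.1 in R 4.3.3 (lmFit, eBayes), with a mean for each day, and days within a side of the udder on 36 arrays with cow as a replicate block. Tests were two-sided, and Benjamini-Hochberg adjustment ran over 24016 probe sets. Errors are SE of the fit unless called SD, and intervals are 95%. Named members are the 6 (paired comparisons) or 4 (others) with the smallest p, and members of set roles; members past the threshold, and those with extreme values or correlations, were named after their values were seen. The members and lists were chosen with earlier results of these data known. Alternatives concerned the block, the spread, array weights, dim probe sets, scaling, centring, probe sets and cows, and the fit was tested on simulated data. Plots were made with Python 3.11.15 and matplotlib 3.10.9.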

Additional observations from a re-analysis of the deposited data

Results flagged for a closer look

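In groups of 6 values, 15 of 159 held a value far from the other 5 by Dixon's test. Chance gives this in about 1 of 20 independent groups, but these groups share genes, cows and arrays. An excess over chance can therefore not be read from the count. Of the 15, 13 came from cow 1 and 11 were of day 40. On day 21 the difference between the 4× and the 2× gland of cow 1 was 1.65 for TIMM8B, where the other cows had 0.08 to 0.26, and 0.68 for MRS2, where they had -0.09 to 0.14. On day 23 it was 0.32 for MRPS28 in cow 1, where the others had -0.32 to -0.10.

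On day 40 the difference of cow 1 stood above all others for MRPL20 at 0.53, MRPS15 at 0.26, MRPS16 at 0.68, MTX1 at 0.44, TIMM50 at 0.42 and TIMM8B at 0.62. The same cow had a mean difference of 0.317 over the 88 genes, 0.331 over the large subunit, 0.308 over the small subunit and 0.331 over the inner membrane and intermembrane space, while the other cows lay between -0.12 and 0.07 in these means. In the 4× and the 2× gland of cow 1 on that day the mean of the endothelium genes was 6.48 and 7.13, and that of the luminal epithelium genes 9.09 and 9.86; their part in the difference was not tested. TOMM40 of cow 2 was apart in the other direction on day 40, at -0.13, where the others had 0.08 to 0.20. The mean level of the outer membrane genes in the 4× gland of cow 3 on day 21 was 8.57, where the others had 8.73 to 8.82.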

How the results depend on the processing

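No member reached an adjusted p under 0.05 in any comparison or alternative. Of the counts and medians under alternatives, 183 stayed within the limits set and 55 moved. With no replicate block, the paired count past an unadjusted p under 0.05 was 2 on day 21, 1 for the change between days 21 and 23 and 0 for that between days 21 and 40, and 3 for day 23 against day 21 in 2× glands. Of all genes 8.09%, 4.74%, 1.77% and 10.5% were past it in these comparisons. With cow as a random replicate block no count of members moved by over 1.5 times. With each comparison fitted on its own 6 differences, the count was 4 for the change between days 21 and 40, 5 and 2 for days 23 and 40 against day 21 in 4× glands, and 2 for day 23 in 2× glands. The shares of all genes were 10.6%, 9.86%, 9.26% and 5.84%. Trend and robust moderation gave 2 for the change between days 21 and 40, beside 6.1% of all genes. Array weights gave 4 on day 40 (1 higher, 3 lower), 3 for the change between days 21 and 40, 5 for day 23 in 4× glands and 0 in 2× glands. The shares of all genes were 20.3%, 6.51%, 10.7% and 5.82%. Leaving out dim probe sets gave 0 for the change between days 21 and 40, beside 5.33% of the genes kept.

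Scaled to 5 reference genes, the counts were 12 on day 21 (all higher), 10 and 5 for the changes to days 23 and 40 (all lower), and 14 and 15 for days 23 and 40 in 2× glands (all higher), where the median on day 40 was 0.128. Of 9155 genes that scaling put 804 higher and 617 lower on day 21, 415 and 571 for the change to day 23, 34 and 488 for that to day 40, and 1200 and 396, and 1042 and 75, for days 23 and 40 in 2× glands. On day 40 that scaling gave 0 members higher and 1 lower in 4× glands, against 1 and 0. Centring on array medians gave 1 for day 40 in 2× glands, beside 7.43% of all genes. The mean over all probe sets of a gene gave 11 on day 21 and 6 on day 40. It gave 7 and 0 for the changes to days 23 and 40, and 1 for day 23 in 4× glands. The shares of all genes were 18.4%, 17.8%, 12.5%, 5.11% and 3.83%.

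Fits without the day 21 or day 40 glands of cow 1 were chosen after seeing the data. Leaving out its day 21 glands gave 4 on day 21 and 1 for day 23 in 2× glands, beside 5.54% and 7.45% of all genes. Leaving out its day 40 glands gave 3 on day 40 and 4 for the change between days 21 and 40, beside 8.48% and 5.18% of all genes.

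With each cow left out in turn, counts ran from 5 (without cow 1) to 9 on day 21, 0 to 2 (without cow 6) on day 23, 0 to 4 (without cow 2) on day 40, 2 (without cow 4) to 6 and 0 (without cows 4 and 5) to 5 (without cow 1) for the changes to days 23 and 40 (2 on day 40 without cow 2, 3 or 6), 1 (without cows 2, 4 and 5) to 3 and 2 (without cow 3) to 6 for days 23 and 40 in 4× glands (3 on day 40 without cow 2), and 2 (without cows 1 and 3) to 13 (without cow 6) and 0 to 2 (without cow 5; 1 without cow 6) for those days in 2× glands. Day 40 counts were 3 without cow 1, 2 without cow 6 and 0 without cows 3, 4 and 5. Member medians ran from 0.033 to 0.0682 on day 21, from -0.0287 to 0.0283 on day 23 and from -0.00476 to 0.0864 on day 40. For the changes to days 23 and 40 they ran from -0.0649 to 0.0175 and from -0.0379 to 0.0196. In 4× glands on days 23 and 40 they ran from -0.0372 to 0.0176 and from -0.0128 to 0.0918, and in 2× glands from 0.00919 to 0.0734 and from 0.03 to 0.0666.

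Among single members, 4 of the values turned their sign: MRPL39 on day 21 was 0.00238 scaled to reference genes, 0.0453 as a mean over probe sets and 0.00331 without cow 6, and TIMM50 was 0.0124 without cow 3. With each cow left out these ran from -0.0791 to 0.00331 for MRPL39 and from -0.077 to 0.0124 for TIMM50. The causes were not tested. Signals under about 5 lie near the background and limit what can be read of MRS2 and MRPL46.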
